A study of Mus musculus with 24 samples.

Results

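The Nuclear factor I (NFI) family of the mouse has 4 genes, Nfia, Nfib, Nfic and Nfix, taken here by their symbols out of 24825 genes listed. All 4 were described in bulk mRNA sequencing of 24 libraries, made from 4 cell types at day 0 and day 7 of adipocyte differentiation with 3 replicates of each. The cells came from the stromal vascular fraction of inguinal white adipose tissue of Nfia fl/fl mice, in which loxP sites flank exon 2 of Nfia, and every group carries that genotype and the SV40 large T antigen that immortalised the cells. The ctrl cells received an empty retrovirus and the Cre cells a retrovirus carrying Cre recombinase. The Cre + NFIA cells carried in addition 3xFLAG-tagged full-length NFIA, and the Cre + NFIA Δpro#3 cells a tagged NFIA without its C-terminal 17 residues, both from retroviruses. At day 0 the cells had not been induced, and by day 7 they had been exposed to a cocktail for thermogenic adipocytes (dexamethasone, isobutylmethylxanthine, indomethacin, insulin, T3 and rosiglitazone). The starting fraction is a mixed cell preparation, the lines are retrovirally infected populations rather than single clones as far as the sources used here state, and both transgenes were expressed from viral vectors on top of the gene's own transcription.

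NFI proteins are transcription factors that share an N-terminal DNA-binding domain and differ more in their C-terminal regions, through which they act on transcription. They bind as homodimers or heterodimers to the palindrome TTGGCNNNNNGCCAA, so that members made in the same cell can occupy the same sites. Nfia is known for its role in glial cells and in the brown adipocyte gene program, Nfib for lung and brain maturation, Nfic for tooth root formation and Nfix for the fetal switch of muscle.

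The members lie on 3 chromosomes of the mouse build NCBIM37 (mm9) by the GENCODE vM1 annotation. Nfia spans chr4:97439425-97868605 on the + strand, Nfib chr4:81936077-82351654 on the - strand, Nfic chr10:80858931-80893750 on the - strand and Nfix chr8:87223775-87324243 on the - strand. The coding end of Nfia is shown first because it is the stretch that the Δpro#3 transgene lacks. Its last 51 coding bases before the stop codon, 17 codons, were read on the coding strand from chr4:97748472-97748507 and chr4:97777909-97777923, and 5 of the 7 annotated Nfia transcripts with a stop codon ended in them. The coding end of each other member that matched it best follows, with capitals marking bases identical to Nfia at the same place:
Nfia: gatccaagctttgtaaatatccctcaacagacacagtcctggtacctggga
Nfib: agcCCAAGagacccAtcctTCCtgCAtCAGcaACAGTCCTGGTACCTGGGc
Nfic: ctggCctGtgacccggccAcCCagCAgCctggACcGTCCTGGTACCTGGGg
Nfix: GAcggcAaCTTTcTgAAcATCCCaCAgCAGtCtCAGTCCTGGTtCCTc
The Nfib end matched Nfia at 32 of 51 bases, the Nfic end at 25 of 51 and the Nfix end, which is shorter, at 34 of 48. Such an end was annotated in 1 of 8 Nfib transcripts, 2 of 7 Nfic transcripts and 1 of 4 Nfix transcripts with a stop codon. The Nfib end was read from chr4:81966378-81966413 and chr4:81942701-81942715, the Nfic end from chr10:80867569-80867604 and chr10:80863802-80863816, and the Nfix end from chr8:87237665-87237700 and chr8:87232565-87232576, all on the - strand.

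Exon 2, the floxed exon of Nfia at chr4:97449773-97450304, is a coding exon of 532 bases, and exon 2 of each other member has the same length. Between pairs of members its sequence was 75.8% to 82.0% identical, lowest between Nfia and Nfic and highest between Nfic and Nfix. The longest exact run shared by the coding sequences of any pair was 32 bases, between Nfic and Nfix, and it was 17 bases for each pair with Nfia. The authors counted uniquely placed reads, and the read length is not given in the sources used here. Exon 2 made up 5.52% of the length over which the FPKM of Nfia was computed. For this reason the gene-level FPKM does not check the deletion, unlike a PCR with a primer inside the exon. The study's primer pair named Nfia shows this. Its reverse primer lies in exon 2, at chr4:97449851-97449872, and its forward primer in exon 1. Another pair of the study, for all variants, lies in exons 5 and 6, outside the floxed exon. The pair named Nfia follows, with capitals marking the primer in exon 2:
forward: gtattctccgctctgtctcacc
reverse: TTTTGAAGTATTTCCGCTTTCG

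Levels are given as FPKM, which is fragments counted, scaled to a kilobase of gene and to 1000000 fragments of the library, so that genes can be set side by side. Library totals ranged from 7.73 to 14.6 M counted reads (M, 1000000), and the summed level of 10 adipocyte markers lay between 84.7 and 119 FPKM at day 0 and between 870 and 26567 FPKM at day 7. Differences were tested with limma on log2(FPKM + 1) over the 12640 genes that reached 1 FPKM in 3 or more libraries, with p adjusted over all of them by Benjamini and Hochberg, and differences with an adjusted p under 0.05 are named called. Log2 differences are on this scale, which understates the change of low genes such as Nfib. All 4 members passed the filter. Where a transgene group is set against Cre or ctrl, the call of Nfia is fixed by its transgene reads. The counts of members called in those comparisons include Nfia, so they are not a result about the family beside the share of all genes. Whether replicates were separate cultures is not stated, so p-values measure the spread between these libraries. In bulk libraries fewer cells of a type and less RNA per cell cannot be told apart. In the words below, Cre stands for the libraries labelled so, since the gene-level value could not check that label. The study itself checked the deletion in Cre-expressing cells by genomic PCR, RT-qPCR and western blot. It reported a near-complete loss of NFIA in both mRNA and protein.

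**Figure D1:**
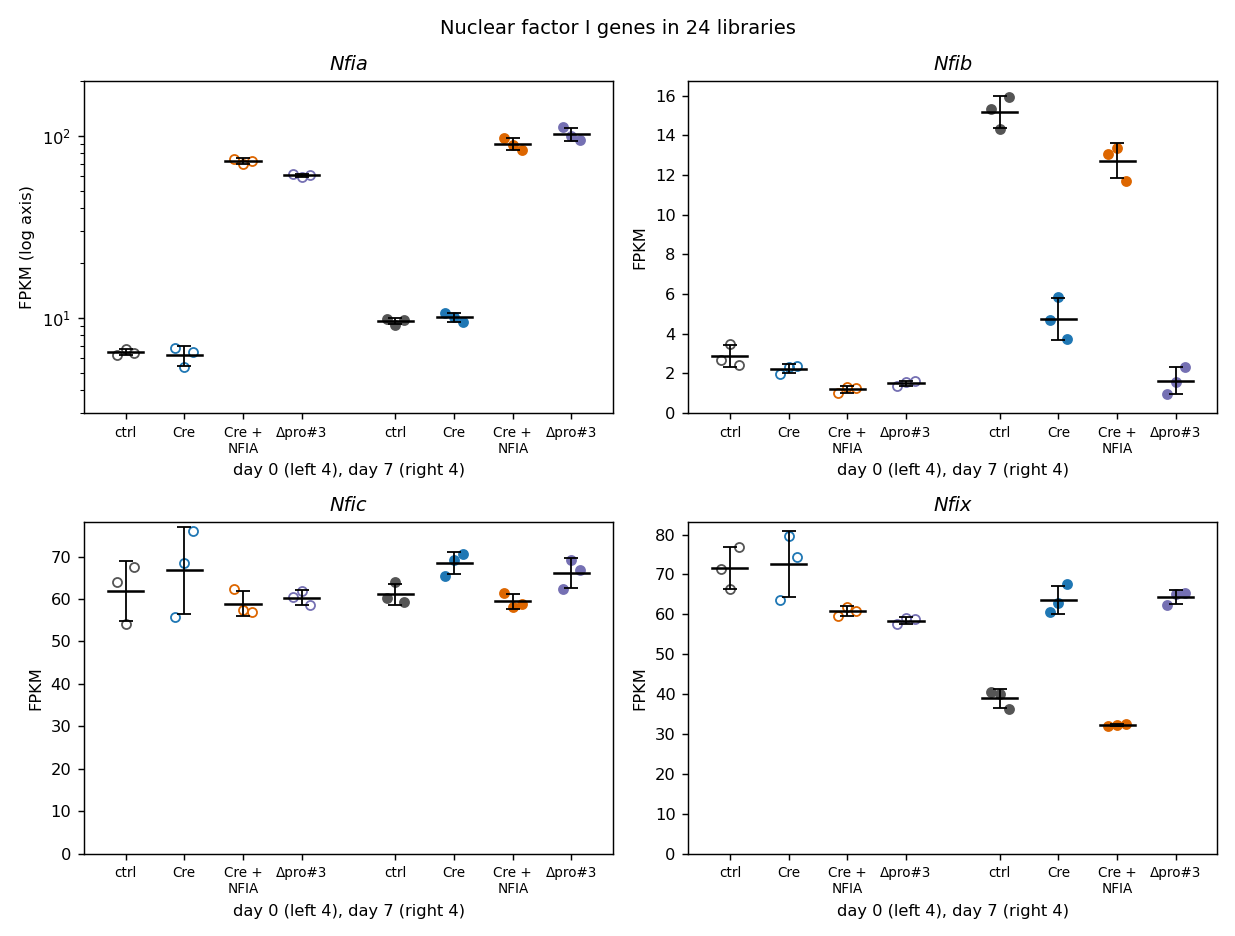
FPKM of each NFI member in the 24 libraries, by cell type and day (log axis for Nfia, axes from 0 for the others), with a point for each library, a line for the mean of 3 replicates and bars for the SD. The Nfia points of the transgene libraries sit above 59 FPKM while ctrl and Cre stay below 11, Nfib spans 0.946 to 15.9 FPKM, and Nfic and Nfix stay above 30 FPKM throughout.

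Nfia, the targeted gene, was not lower in Cre than in ctrl at the level of the whole gene. Day 0 libraries of ctrl held 6.23, 6.75 and 6.43 FPKM and those of Cre 6.81, 5.34 and 6.49. Day 7 libraries of ctrl held 9.81, 9.15 and 9.70 FPKM and those of Cre 10.7, 10.1 and 9.49. The ranges overlapped on both days. The log2 difference was -0.06 at day 0 (95% interval -0.21 to 0.10, adjusted p = 0.687) and 0.07 at day 7 (95% interval -0.09 to 0.23, adjusted p = 0.426). The SD was 12.5% of the mean in Cre at day 0 and 5.84% in Cre at day 7, above the 5.52% share of exon 2 in the gene length. In ctrl it was 4.08% at day 0 and 3.72% at day 7, below that share. Any effect of the deletion on the rest of the message was not tested.

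With a transgene, Nfia stood an order of magnitude higher. Day 0 libraries held 74.9, 69.7 and 72.7 FPKM with full-length NFIA and 61.7, 59.7 and 60.7 FPKM with Δpro#3. Day 7 libraries held 97.1, 89.0 and 83.9 FPKM with full-length NFIA and 111, 99.5 and 95.0 FPKM with Δpro#3. The full-length libraries were thus all above the Δpro#3 libraries at day 0, while at day 7 the ranges overlapped. Against Cre, the log2 difference was 3.35 and 3.10 at day 0 and 3.04 and 3.21 at day 7 for full-length and Δpro#3, all of which were called. Between the transgenes, Δpro#3 was 0.25 lower on the log2 scale at day 0 (adjusted p = 0.0487) and 0.18 higher at day 7 (adjusted p = 0.0439). The day 0 call was lost (adjusted p = 0.0813 to 0.141) on leaving out any 1 of its 6 libraries, and the day 7 call on leaving out Cre + NFIA replicate 2 or 3 or Δpro#3 replicate 1 or 2, where the difference was 0.17, 0.13, 0.11 and 0.19 in that order. Under median-of-ratios scaling the day 7 difference was 0.05 (adjusted p = 0.539).

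The excess of Nfia over the mean of Cre was 66.2 ± 2.63 FPKM (SD, n = 3) with full-length NFIA and 54.5 ± 1.01 FPKM with Δpro#3 at day 0, and 79.9 ± 6.68 and 91.9 ± 8.44 FPKM at day 7. This excess was 88.8% to 91.4% of all Nfia reads of those groups. FPKM divides by a gene length of 9643 bases while the coding sequence has 1530 bases. If the transgene messages hold coding sequence alone, the excess corresponds to 417 and 343 FPKM per coding length at day 0 and to 504 and 579 at day 7. Both transgenes were divided by the 1530 bases of the full length. Since Δpro#3 lacks 51 of these, its values of 343 and 579 are slightly too low. In the remaining groups, without a transgene, Nfia rose with differentiation by 0.50 on the log2 scale in ctrl and 0.62 in Cre.

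Nfib, the least abundant member before differentiation, rose strongly with differentiation in ctrl cells and did so less in Cre. In ctrl it went from 2.69, 3.48 and 2.43 FPKM at day 0 to 15.3, 14.3 and 15.9 at day 7. In Cre it went from 1.96, 2.32 and 2.37 FPKM to 4.67, 5.85 and 3.73. The day 7 libraries of ctrl and Cre did not overlap, nor did the days within either cell type. With full-length NFIA, Nfib went from 1.01, 1.33 and 1.23 FPKM at day 0 to 13.1, 13.4 and 11.7 at day 7. The Δpro#3 libraries held 1.34, 1.56 and 1.58 FPKM of Nfib before and 0.946, 1.58 and 2.32 FPKM after differentiation, so that the days overlapped and the spread at day 7 was wide, at 42.5% of the mean. The counts behind these values ranged from 99 to 2076 reads per library.

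Over differentiation, the log2 rise of Nfib was 2.07 in ctrl (adjusted p = 8.68e-11), 0.82 in Cre (adjusted p = 0.000108) and 2.65 with full-length NFIA (adjusted p = 1.56e-12). With Δpro#3 the difference was 0.04 (95% interval -0.28 to 0.35, adjusted p = 0.874). The rise passed 3-fold in ctrl and with full-length NFIA, where 8.5% and 9.08% of genes tested passed that size in either direction. With a pseudocount of 5 FPKM these rises were 1.36 and 1.52, both under 3-fold. Time comparisons of the whole family called 3 of 4 members in ctrl, against 71.0% of all genes tested, 3 in Cre against 51.7%, 3 with full-length NFIA against 70.1% and 1, Nfia, with Δpro#3 against 41.5%.

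Nfix, one of the most abundant members, moved the other way. In ctrl it fell from 71.4, 66.4 and 76.9 FPKM at day 0 to 40.5, 39.9 and 36.2 at day 7, and with full-length NFIA from 59.6, 61.9 and 60.9 FPKM to 32.0, 32.3 and 32.6. Neither pair of ranges overlapped. In Cre the values were 63.6, 79.7 and 74.5 FPKM at day 0 and 60.6, 62.8 and 67.5 at day 7, which overlapped. With Δpro#3 they were 57.5, 59.1 and 58.7 FPKM at day 0 and 62.4, 65.2 and 65.4 at day 7, without overlap. The log2 change was -0.86 in ctrl (adjusted p = 2.36e-10), -0.89 with full-length NFIA (adjusted p = 1.37e-10), -0.18 in Cre (adjusted p = 0.0273) and 0.14 with Δpro#3 (95% interval -0.0029 to 0.28, adjusted p = 0.111). The call in Cre was lost when day 0 replicate 2 or 3 or day 7 replicate 1 or 2 was left out, with values of -0.11, -0.16, -0.15 and -0.17.

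Nfic was nearly level across all groups. Its means ran from 58.9 ± 2.92 FPKM (SD, n = 3) with full-length NFIA at day 0 to 68.4 ± 2.63 FPKM in Cre at day 7, and neighbouring groups in the order of levels all overlapped. At day 7 its libraries were at 60.1, 64.0 and 59.3 FPKM in ctrl, 65.5, 69.1 and 70.7 in Cre, 61.5, 58.1 and 58.9 with full-length NFIA, and 62.4, 69.2 and 66.8 with Δpro#3. The Cre libraries stood above all those of ctrl and of full-length NFIA. Nfic was called in 3 of 20 comparisons, all at day 7, and the other members in 16 each. The 3 calls, 0.16 for Cre against ctrl, -0.20 for Cre + NFIA against Cre and 0.15 for Δpro#3 against full-length, became 0.02, -0.09 and 0.03 under median-of-ratios scaling and were all lost. The first was also lost without ctrl replicate 1 or 3 or Cre replicate 2 or 3 (values of 0.14 to 0.15), and the third without Cre + NFIA replicate 2 or 3 or Δpro#3 replicate 2 or 3 (0.12 to 0.14). Under the same scaling the median of all genes in these comparisons shifted by about as much, from 0.09 to -0.02 for Cre against ctrl and from 0.10 to -0.01 for Δpro#3 against full-length. Over differentiation Nfic was not called in any cell type, with log2 differences from -0.01 to 0.13, although under quantile normalization it was called in ctrl at -0.19 (adjusted p = 0.0449).

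Cre was set against ctrl to see what differs in cells meant to lose Nfia. At day 0 limma called 0 of 4 members, against 3.33% of all genes tested. At an unadjusted p under 0.05 there was 1, Nfib, at a log2 difference of -0.26 (adjusted p = 0.210), and voom on recovered reads called 0. At day 7 it called 3 of 4, against 58.8% of all genes. Nfib was lower in Cre, at 4.75 ± 1.06 FPKM (SD, n = 3) against 15.2 ± 0.806 in ctrl (log2 difference -1.51 ± 0.172 SE, adjusted p = 1.63e-05). Nfix was higher in Cre, at 63.7 ± 3.51 FPKM against 38.9 ± 2.31 in ctrl (log2 difference 0.70 ± 0.0545 SE, adjusted p = 1.35e-06). Nfic was higher by 0.16 (adjusted p = 0.0208), subject to the scaling just given. Among all genes tested 36.1% were called higher and 22.7% lower in Cre at day 7, or 4563 and 2867 genes, which became 3398 and 3948 under median-of-ratios scaling.

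Both day 7 differences were larger than those at day 0. The difference between the days was -1.25 for Nfib (adjusted p = 6.56e-05) and 0.68 for Nfix (adjusted p = 6.23e-06), in an interaction test over all 24 libraries that called 2 of 4 members and 49.2% of all genes.

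Adding back full-length NFIA asks which of these differences it reverses, and shares the Cre libraries with the comparison above. At day 0 it called 3 of 4 members, Nfia among them through its transgene reads, against 27.6% of all genes. Besides Nfia, Nfib was lower with the transgene by 0.56 ± 0.108 (SE) on the log2 scale (adjusted p = 0.00318), with libraries of 1.01 to 1.33 FPKM against 1.96 to 2.37 FPKM. Nfix was lower by 0.25 (adjusted p = 0.0321), a call lost when Cre replicate 2 or 3 or any of the 3 libraries with full-length NFIA was left out, with values of -0.18 to -0.26. At day 7 it called all 4 members against 63.0% of all genes, of which 27.0% were higher and 35.9% lower (3418 and 4540 genes, or 4264 and 3677 under median-of-ratios scaling). Nfib was now higher with the transgene, at 12.7 ± 0.882 FPKM against 4.75 ± 1.06 (log2 difference 1.27, adjusted p = 4.45e-05). Nfix was lower, at 32.3 ± 0.278 FPKM against 63.7 ± 3.51 (log2 difference -0.95, adjusted p = 5.34e-08).

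The sign of the Nfib difference therefore changed between the days. The interaction was 1.82 for Nfib (adjusted p = 5.77e-07), which passed 3-fold as did 2.86% of all genes tested, -0.71 for Nfix (adjusted p = 3.04e-06) and -0.32 for Nfia (adjusted p = 0.0145), 3 of 4 members against 48.9% of all genes. The Nfia call was lost without Cre day 0 replicate 2 (-0.23, adjusted p = 0.0516), under median-of-ratios scaling (-0.19, adjusted p = 0.141) and with a pseudocount of 5 FPKM (-0.14, adjusted p = 0.189). Set directly against ctrl, full-length NFIA at day 7 called 2 of 4 members, Nfix and, through its transgene reads, Nfia, against 18.0% of all genes. Nfix was 0.26 lower than in ctrl (adjusted p = 0.00738), and Nfib differed by -0.24 (95% interval -0.61 to 0.14, adjusted p = 0.376). At day 0 the same comparison called 3 of 4 against 33.1%, with Nfib lower by 0.81 (adjusted p = 0.000247).

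The Δpro#3 transgene did not bring Nfib and Nfix to the levels of the full-length one at day 7. Against Cre it called 2 of 4 members, Nfib and, through its transgene reads, Nfia, against 17.7% of all genes, 7.7% higher and 10.0% lower. Nfib was lower still than in Cre, at 1.62 ± 0.688 FPKM against 4.75 ± 1.06 (log2 difference -1.15, adjusted p = 0.00111), and no library overlapped. Nfix was at 64.3 ± 1.69 FPKM against 63.7 ± 3.51, a log2 difference of 0.02 (95% interval -0.10 to 0.14, adjusted p = 0.883).

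Set directly against full-length NFIA at day 7, Δpro#3 called all 4 members against 69.2% of all genes. Nfib was lower by 2.42 on the log2 scale (adjusted p = 1.26e-07) and passed 3-fold, as did 6.92% of genes, and Nfix was higher by 0.97 (adjusted p = 2.32e-08). Against ctrl it called 3 of 4 against 66.9%, with Nfib at -2.66 (adjusted p = 1.12e-07), past 3-fold as were 4.5% of genes, and Nfix at 0.71 (adjusted p = 3.46e-07). At day 0 the transgenes differed only slightly in these genes: 1 of 4 was called, Nfia, against 10.1% of all genes, and the difference was 0.19 for Nfib (95% interval -0.05 to 0.43) and -0.06 for Nfix. Against Cre at day 0 Δpro#3 called 3 of 4 members against 18.3%, and against ctrl 3 of 4 against 30.4%, Nfia among them both times through its transgene reads. Nfib was lower than Cre by 0.37 (adjusted p = 0.0384) and Nfix by 0.30 (adjusted p = 0.0188), and both calls were lost on leaving out 5 of the 6 libraries in turn, all but Cre replicate 1.

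The difference between the days called 2 of 4 members for Δpro#3 against Cre, with -0.79 for Nfib (adjusted p = 0.0134) and 0.32 for Nfix (adjusted p = 0.0230), against 18.2% of all genes. The Nfix call was lost without Cre day 0 replicate 2 or 3, Cre day 7 replicate 1 or 2 or Δpro#3 day 0 replicate 1, with values of 0.25 to 0.31. For Δpro#3 against full-length NFIA it called 3 of 4 against 59.4%, with -2.61 for Nfib (adjusted p = 1.70e-09), past 3-fold as were 7.02% of genes, 1.03 for Nfix (adjusted p = 9.13e-09) and 0.43 for Nfia (adjusted p = 0.00121).

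**Figure D2:**
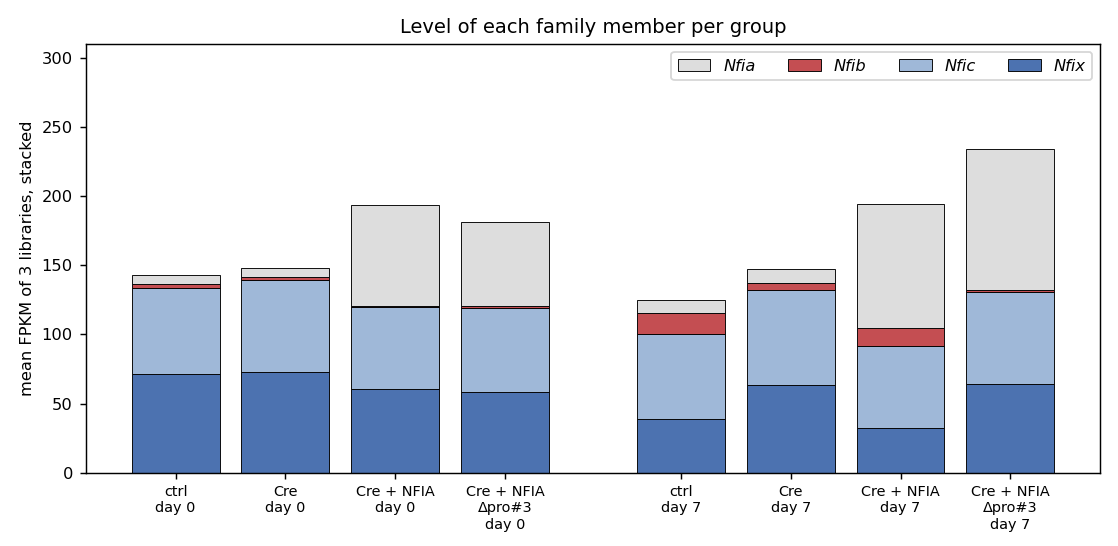
FPKM of the 4 NFI members stacked by group, each bar being the mean of 3 libraries. Nfic and Nfix make up most of each bar without a transgene, Nfia, divided here by gene length, most of what the transgene groups gain, and Nfib is visible mainly in ctrl and Cre + NFIA at day 7.

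Because FPKM is per length, the members' shares in the family could be compared in the groups without a transgene. There Nfix and Nfic together held most of the family's FPKM. In ctrl the mean share of Nfix went from 50.1% at day 0 to 31.2% at day 7, that of Nfic from 43.3% to 49.0%, that of Nfib from 2.04% to 12.2% and that of Nfia from 4.56% to 7.66%. In Cre at day 7 the shares were 43.3% for Nfix, 46.6% for Nfic, 3.24% for Nfib and 6.88% for Nfia. The Nfix and Nfib shares of Cre lay nearer to those of ctrl at day 0 than at day 7, and the Nfic and Nfia shares nearer to those of ctrl at day 7. No share is given for the transgene groups, since it would depend on whether transgene reads are divided by the gene length or the coding length. The summed FPKM of Nfib, Nfic and Nfix was 136 ± 11.6 in ctrl, 142 ± 17.6 in Cre, 121 ± 1.87 with full-length NFIA and 120 ± 1.99 with Δpro#3 at day 0. After differentiation the sum was 115 ± 3.45 in ctrl, 137 ± 5.59 in Cre, 105 ± 1.79 with full-length NFIA and 132 ± 5.53 with Δpro#3. The rise of Nfib in ctrl was thus smaller in FPKM than the fall of Nfix. Among all genes listed, Nfic lay above 94.6% to 95.7% of genes in every group and Nfib above 54.9% to 80.3%.

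In Cre against ctrl and in full-length NFIA against Cre at day 7, Nfib and Nfix moved with markers of differentiation, in opposite directions. In Δpro#3 against Cre Nfib was lower, at -1.15, while Nfix was not called, at 0.02. With full-length NFIA against ctrl both had the same sign, at -0.24 and -0.26. The summed FPKM of the 10 adipocyte markers at day 7 was 22893, 26567 and 26166 in ctrl, 7924, 9784 and 4561 in Cre, 22031, 21977 and 22196 with full-length NFIA and 870, 2002 and 2211 with Δpro#3. In Cre and in Δpro#3 the libraries stood in the same order by this sum as by Nfib, while in ctrl the order differed and with full-length NFIA it was the reverse. All 10 markers were called lower in Cre than in ctrl, higher with full-length NFIA than in Cre and lower with Δpro#3 than in Cre. Of all genes tested, 22.7%, 27.0% and 10.0% were called in those directions. The summed stromal precursor markers at day 7 were at 885 to 968 FPKM in ctrl, 1886 to 2167 in Cre, 805 to 902 with full-length NFIA and 2049 to 2421 with Δpro#3, against 2931 to 3381 at day 0. Of the 7 tested, 7 were called higher in Cre than in ctrl and 7 lower with full-length NFIA than in Cre, as Nfix was, where 36.1% and 35.9% of all genes were called in those directions. With Δpro#3 against Cre 1 was higher and 1 lower, beside 7.7% and 10.0% of all genes. Over time the members did not always follow the sums. With Δpro#3 the mean adipocyte sum rose from 87.6 FPKM at day 0 to 1695 at day 7. Mean Nfib there was 1.49 and 1.62 FPKM. The mean stromal sum fell there from 2983 to 2288 FPKM, while mean Nfix was 58.4 and 64.3 FPKM. The part of these markers in the results for Nfib and Nfix was not tested.

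**Figure D3:**
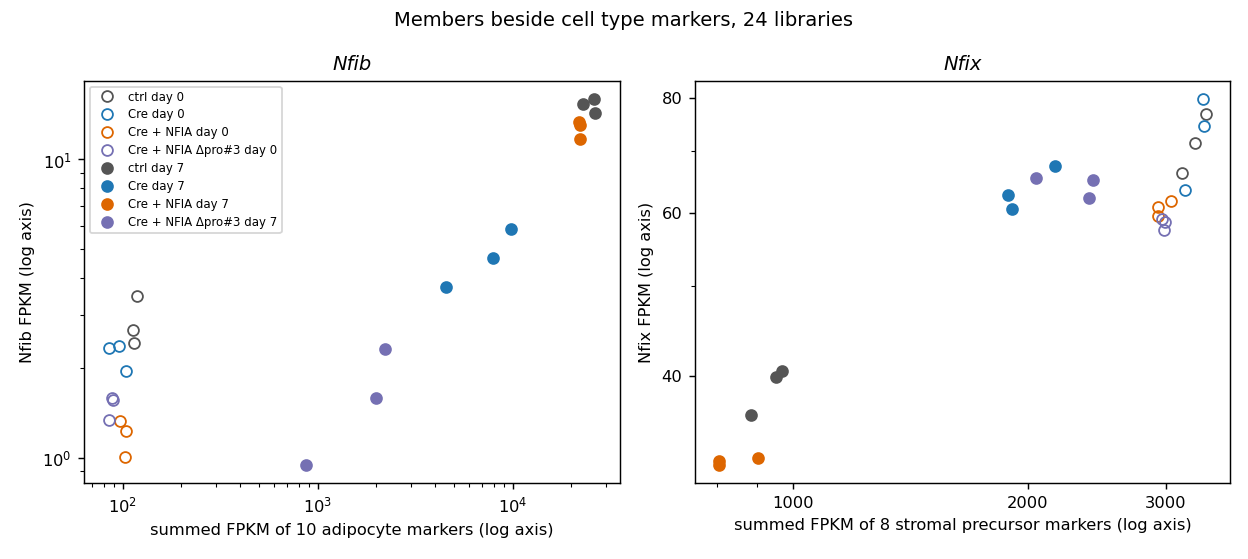
FPKM of Nfib against the summed FPKM of 10 adipocyte markers and FPKM of Nfix against that of 8 stromal precursor markers, all on log axes, a point for each of the 24 libraries (open at day 0, filled at day 7). At day 7 the ctrl and Cre + NFIA libraries have the highest adipocyte sums with Nfib at 11.7 to 15.9 FPKM and the lowest stromal sums with Nfix at 32.0 to 40.5 FPKM.

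Markers of other cell types that such a fraction can hold were low in every library. The summed FPKM was at most 0.390 for endothelial, 0.363 for mesothelial and 1.30 for Schwann markers, at most 7.33 for skeletal muscle and 3.53 to 8.23 for leukocyte markers, of which Cd68 held nearly all, while Ptprc, Adgre1, Itgam and Cd3e had under 3 reads in every library. The 6 thermogenic adipocyte markers summed to 64.3 to 85.8 FPKM in ctrl at day 7, 5.29 to 11.6 in Cre, 153 to 164 with full-length NFIA and 1.81 to 3.63 with Δpro#3. Of them Ucp1, Cidea and Dio2 did not reach 1 FPKM in 3 libraries, and Dio2 had under 3 reads in every library. These sums are therefore not to be read as levels of Ucp1 or Cidea.

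Of 14 transcription regulators of adipocyte differentiation, a list chosen for this pathway, 13 were tested. At day 7 in Cre against ctrl 1 was called higher and 8 lower, with a median of -0.54 beside 0.09 over all genes. With full-length NFIA against Cre 9 were higher and 2 lower (median 0.43 beside -0.06). With Δpro#3 against Cre 0 were higher and 6 lower (median -0.21 beside 0.02). Among all genes tested, 36.1% were called higher and 22.7% lower in Cre against ctrl. The shares were 27.0% and 35.9% for full-length NFIA against Cre, and 7.7% and 10.0% for Δpro#3 against Cre. Pparg, the master regulator of adipocyte differentiation, was at 50.1, 51.2 and 54.8 FPKM in ctrl at day 7, 16.3 to 27.0 in the 3 libraries of Cre, 60.2, 63.2 and 56.5 with full-length NFIA and 6.38, 9.29 and 11.4 with Δpro#3. Its order of groups followed that of Nfib, except that full-length NFIA stood above ctrl. Its log2 differences were -1.21 for Cre against ctrl, 1.41 for full-length NFIA against Cre and -1.23 for Δpro#3 against Cre, all called. Cebpa, a partner of Pparg, gave -1.20, 1.28 and -1.41, and Srebf1, a regulator of lipid synthesis, -1.46, 1.64 and -1.05. Ppargc1a, the coactivator of mitochondrial genes, gave -0.87 and 2.36 in the first 2 of these and Ppara, a receptor that drives fatty acid oxidation, -1.01 and 1.82, while in Δpro#3 against Cre their values of -0.21 and -0.17 were not called.

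Of 9 genes linked to NFI proteins in other tissues, 7 were tested, with calls in both directions. At day 7, 3 were higher and 1 lower in Cre against ctrl (median -0.18 beside 0.09 over all genes), 3 higher and 2 lower with full-length NFIA against Cre (0.19 beside -0.06), and 1 higher and 1 lower with Δpro#3 against Cre (0.07 beside 0.02). Over all genes 58.8%, 63.0% and 17.7% were called in these comparisons. Igfbp5, a binding protein of insulin-like growth factors, was higher with full-length NFIA than in Cre by 2.17, and with Δpro#3 by 0.94. Zcchc24 and Col1a2, a collagen chain, moved in the direction of Nfix, by 0.66 and 0.65 in Cre against ctrl and by -0.87 and -1.30 with full-length NFIA. Apcdd1, an inhibitor of Wnt signalling, moved in the direction of Nfib, by -0.62, 0.68 and -0.75 in the 3 comparisons. Hes1, a Notch target and repressor, was not called in any of them, at -0.22, 0.03 and -0.11.

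By the Pearson correlation of log2(FPKM + 1) over all 24 libraries, which share cell types and days, the genes most like Nfib were Mccc2 (r = 0.984), Hacd2 (0.982), Rcbtb2 (0.980), Epb41l2 (0.979) and Abcd3 (0.977), and the most opposite Man2b1 (-0.978), Cdk18 (-0.975) and Ecm1 (-0.974). Pparg stood at 0.893 and Srebf1 at 0.941 to Nfib. The genes most like Nfix were P3h3 (0.984), Ripor1 (0.984), Clip3 (0.979), Sfxn3 (0.979) and Lix1l (0.977), and the most opposite Ghitm (-0.972), Pef1 (-0.971) and Atl2 (-0.969). Nfib and Nfix stood at -0.813 to each other. Nfic, which varied little, had Bcl9l at 0.926 and then R3hdm4 at 0.841. Nfia was set beside other genes only in the 12 libraries without a transgene, where Ccdc3 and Kdm7a (both 0.976) were most like it and Nrm (-0.986) most opposite.

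Inside the annotated span of Nfib, on the opposite strand at chr4:82153920-82193196, lies Gm11266, which was detected mainly where Nfib was high. It had 0 reads in all 12 day 0 libraries. Its day 7 level was 0.878, 1.32 and 1.53 FPKM in ctrl (14 to 28 reads) and 1.43, 1.30 and 1.21 FPKM with full-length NFIA (21 to 25 reads), against 0 to 2 reads in Cre and 0 to 5 reads with Δpro#3. The log2 difference of Gm11266 was -1.02 for Cre against ctrl and 1.07 for full-length NFIA against Cre, with no overlap between libraries. Gm11266 reached 1 FPKM only in ctrl and Cre + NFIA libraries of day 7. It thus passed the filter through the groups where it is high, and these differences are given as description with no p. The library kit marks strand and counts were taken on the matched strand. The reads are few, and the size of these differences depends on the pseudocount.

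**Figure D4:**
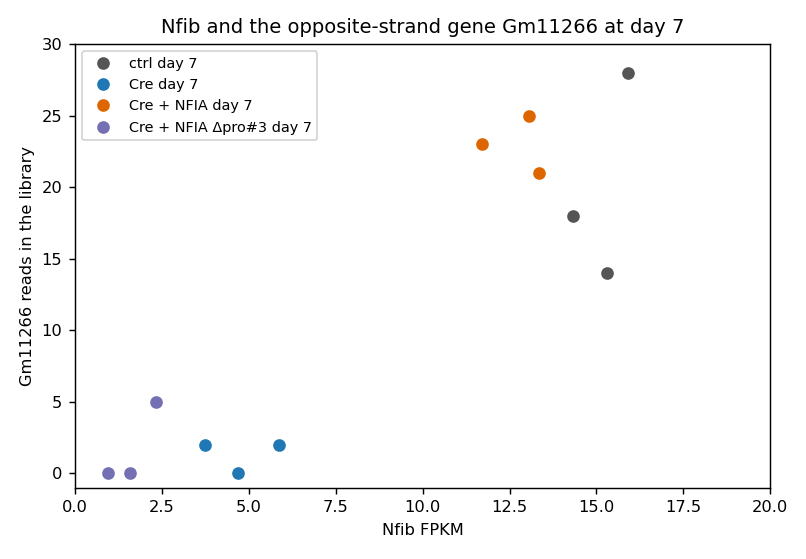
Reads of Gm11266, the gene on the opposite strand inside the span of Nfib, against the FPKM of Nfib in the 12 libraries of day 7, a point for each library. Gm11266 has 14 to 28 reads in ctrl and Cre + NFIA, where Nfib is at 11.7 to 15.9 FPKM, and at most 5 reads in the Cre and Δpro#3 libraries.

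Some other neighbours of Nfib and Nfix did not follow them at day 7, and the remaining neighbours are not described here. Zdhhc21, 93.0 kb from Nfib, and Mpdz, 847 kb from it, were not called in Cre against ctrl at day 7. Ptprd, 4078 kb from Nfib, was higher with full-length NFIA than in Cre by 1.08, in the direction of Nfib. Trmt1, on the opposite strand, whose 3' end lies 68 bases from the 3' end of Nfix, was not called in any of the 3 day 7 comparisons, at 0.05 for Cre against ctrl, -0.10 for full-length NFIA against Cre and 0.11 for Δpro#3 against Cre. In RefSeq promoter windows around gene starts of GRCm38.p6, entries were found for Nfia, Nfic and Nfix. None held the full palindrome, which 0.0365% of 32851 windows held on either strand. The shorter TTGGC was found in 3 of 4 Nfix windows and in none of Nfia or Nfic, beside 46.7% of all windows.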

How the data were processed

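Cells of 8 groups were sequenced as stranded mRNA libraries (TruSeq Stranded), 3 per group. The authors deposited FPKM per gene for each library, made by aligning reads to mm9 with STAR 2.5.3a, keeping unique reads. FPKM values were whole multiples of 1 read's worth in 100% of values (tolerance 0.05 read), which gave reads per gene and totals of 7.73 to 14.6 M (M, 1000000). The labels gave groups and replicate numbers. limma 3.58.1 in R 4.3.3 was fitted to log2(FPKM + 1) with a mean-variance trend over 12640 genes (those that reached 1 FPKM in 3 or more libraries), on the 12 libraries of a day for comparisons within it and on all 24 for time and interaction, two-sided with Benjamini-Hochberg adjustment over all genes, 20 comparisons in all. The fit was tested on simulated data. Alternatives were other pseudocounts, filters, scalings, designs, voom on recovered reads and each library of the groups compared left out in turn. Members and lists were chosen with earlier results of these data known. The named genes were the members, Pparg, Cebpa, Hes1, Igfbp5, the 3 largest called changes of each list at day 7 and the nearest neighbours. Sequences came from the NCBIM37 genome and GENCODE vM1, promoters from RefSeq and primers from the study's supplement. Protein sequences were not used here.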

Additional observations from a re-analysis of the deposited data

Results flagged for a closer look

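In 10 cases the difference between cell types of an NFI member itself differed between day 0 and day 7, by the interaction term of limma over all 24 libraries. Each value is the log2 difference at day 7 minus that at day 0, with adjusted p over 12640 genes.

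For Cre against ctrl it was -1.25 for Nfib (adjusted p = 6.56e-05), the gene being lower in Cre at day 7 in 3 of 3 libraries, and 0.68 for Nfix (adjusted p = 6.23e-06), higher in 3 of 3. For Cre + NFIA against Cre it was 1.82 for Nfib (adjusted p = 5.77e-07), -0.71 for Nfix (adjusted p = 3.04e-06) and -0.32 for Nfia (adjusted p = 0.0145), a call lost under median-of-ratios scaling (-0.19, adjusted p = 0.141), with a pseudocount of 5 FPKM (-0.14, adjusted p = 0.189) and without Cre day 0 replicate 2. For Cre + NFIA Δpro#3 against Cre it was -0.79 for Nfib (adjusted p = 0.0134) and 0.32 for Nfix (adjusted p = 0.0230), both lost with only the groups compared in the fit. For Cre + NFIA Δpro#3 against Cre + NFIA it was -2.61 for Nfib (adjusted p = 1.70e-09), 1.03 for Nfix (adjusted p = 9.13e-09) and 0.43 for Nfia (adjusted p = 0.00121). The 3 comparisons with Cre share its libraries, and the adipocyte and stromal marker sums moved over the same groups and days. Their part was not tested.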

How the results depend on the processing

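Alternatives were 12 settings and leaving out each library of the groups compared in turn. Under all of them every day 7 call of Nfib and Nfix between cell types kept its direction and its side of the threshold. The numbers of members called changed by over 1.5 times as follows. Δpro#3 against Cre at day 0 called 1 with no filter on low values and 1 to 3 with 1 library left out. Δpro#3 against Cre + NFIA at day 0 called 0 with a pseudocount of 0.1 FPKM, no filter, median-of-ratios scaling or limma without trend, and 0 with any library left out. With the replicate block it also called 0 (Nfia -0.25, adjusted p = 0.0584), and the block changed no other call. Same-numbered libraries did not deviate together, so the numbers are taken as names. Δpro#3 against Cre + NFIA at day 7 called 2 under median-of-ratios scaling and 2 to 4 with a library left out. Over time Δpro#3 called 2 under quantile normalization and with only the groups compared in the fit. The difference between the days of Δpro#3 against Cre called 0 with only the groups compared (Nfib -0.79, adjusted p = 0.0599, Nfix 0.32, adjusted p = 0.0577) and 1 to 2 with a library left out, Nfix then being at 0.25 to 0.41. For Nfix over time, Cre gave -0.18 and lost its call with no filter (adjusted p = 0.0515) and with only the groups compared (adjusted p = 0.148), and ranged from -0.27 to -0.11 with a library left out, while Δpro#3 was called at 0.17 under quantile normalization and at 0.14 with only the groups compared. Summed Nfib, Nfic and Nfix under median-of-ratios scaling became 122 FPKM in ctrl, 109 in Cre + NFIA and 126 in Δpro#3 at day 7. Among other calls, Nfix at day 0 in Cre + NFIA was lost with no filter, against Cre (adjusted p = 0.0841) and against ctrl (0.0958), and also with only the groups compared (0.0866, against Cre) and without trend (0.0504, against ctrl). Nfia in Δpro#3 against Cre + NFIA at day 7 was lost with no filter (0.0913), only the groups compared (0.0788) and without trend (0.0586). In the difference between the days of Δpro#3 against Cre Nfia was called with a pseudocount of 5 FPKM (0.27) and under quantile normalization (0.29), where Nfic was also called in Δpro#3 against ctrl at day 7 (0.22). The size of the Nfib values depended on the pseudocount, and over all alternatives the rise over time ranged from 1.36 to 2.42 in ctrl and from 1.52 to 3.42 in Cre + NFIA, and the day 7 difference from -1.71 to -1.05 for Cre against ctrl, 0.87 to 1.45 for Cre + NFIA against Cre, -1.60 to -0.56 for Δpro#3 against Cre and -3.05 to -1.42 for Δpro#3 against Cre + NFIA. Of these, a pseudocount of 5 gave the smallest. The cause of the other changes was not tested.

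No called value changed its sign, and 34 uncalled values did. Under median-of-ratios scaling Nfia in Cre against ctrl at day 7 became -0.056, and Nfic became -0.039 in Δpro#3 against ctrl at day 7, 0.071 and -0.0030 over time in ctrl and Cre, and -0.074 in the difference between the days of Cre against ctrl, 0.095 in that of Cre + NFIA against Cre and -0.018 in that of Δpro#3 against Cre + NFIA. Under quantile normalization Nfix in Cre against ctrl at day 0 became -0.040, Nfic in Δpro#3 against Cre + NFIA at day 0 -0.0050, Nfia in Cre against ctrl -0.059 at day 7 and -0.028 for the difference between the days, and over time Nfic became -0.086 in Cre + NFIA and Nfib -0.17 in Δpro#3. With a library left out the ranges that crossed 0 were, at day 0, -0.12 to 0.034 for Nfia and -0.052 to 0.11 for Nfix in Cre against ctrl, and for Nfic -0.16 to 0.0011 in Cre + NFIA and -0.12 to 0.035 in Δpro#3, both against ctrl. At day 7 Nfix in Δpro#3 against Cre ranged from -0.018 to 0.058. Over time Nfib in Δpro#3 ranged from -0.15 to 0.23, and Nfic from -0.076 to 0.15 in Cre, -0.0084 to 0.055 in Cre + NFIA and -0.10 to 0.054 in ctrl. For the difference between the days Nfic ranged from -0.13 to 0.091 in Cre + NFIA against Cre, -0.017 to 0.21 in Δpro#3 against Cre and -0.064 to 0.16 in Cre against ctrl. Depth limited Nfib, with as few as 99 reads in a library, and Gm11266.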
